A study of Mus musculus with 8 samples.

Results

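In tdTomato-positive cells sorted from mouse cortex, transcripts of 10 genes for inward rectifier (Kcnj) and two-pore (Kcnk) potassium channels were examined. They were Kcnj10, Kcnj16, Kcnj2, Kcnj3, Kcnj4, Kcnj6, Kcnj9, Kcnk1, Kcnk2 and Kcnk10, chosen by gene symbol from a count table of 24047 rows, and all 10 had enough counts to be among the 10954 genes tested. The somatosensory cortex of mice aged 23 to 25 days was dissociated, and cells carrying tdTomato were sorted for RNA. The 4 WT libraries were labelled as the mouse line Glast-CreERT2; Ai14, and the 4 Ptch1cKO libraries as Glast-CreERT2; Ptch1fl/fl; Ai14. Both groups therefore carried the tamoxifen-inducible Cre driven by the Glast promoter and the Ai14 tdTomato reporter, and tamoxifen was injected on postnatal days 12 to 14. Only the mutants carried 2 floxed copies of Ptch1, the receptor that restrains Sonic hedgehog signalling. Glast is also active in radial glia and neural progenitors, and tdTomato marks any cell in which Cre acted together with its progeny. The labels do not say whether a library came from 1 animal, and the p-values therefore rest on variation among libraries that may be technical.

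Inward rectifiers pass potassium into a cell more readily than out of it and hold the membrane close to the potassium equilibrium potential. In astrocytes Kcnj10 encodes Kir4.1, the main channel for taking up potassium released by active neurons, and Kcnj16 encodes Kir5.1, which forms no current alone in most cells but joins Kir4.1 in a heteromer that is sensitive to intracellular pH. Kcnj3, Kcnj6 and Kcnj9 encode the G protein-gated subunits GIRK1, GIRK2 and GIRK3, known chiefly from neurons, where they carry slow inhibitory currents downstream of receptors such as the GABA-B receptor. Kcnj2 and Kcnj4 encode the strong rectifiers Kir2.1 and Kir2.3. The two-pore channels carry background leak currents, and Kcnk1 (TWIK-1), Kcnk2 (TREK-1) and Kcnk10 (TREK-2) are the members examined here.

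In the mm10 assembly, Kcnj10 lies on chromosome 1 from 172341210 to 172374085 on the plus strand, next to Kcnj9 (172320501 to 172329318, minus strand). The annotated 5′ ends of these 2 genes point away from each other, 11.9 kb apart. Kcnj16 (chromosome 11, 110968033 to 111027968, plus strand) and Kcnj2 (111066164 to 111076821, plus strand) are also neighbours, with 38.2 kb between them and no protein-coding gene in between. Kcnj3 lies on chromosome 2 (55435970 to 55598145), Kcnj4 on chromosome 15 (79483714 to 79505241), Kcnj6 on chromosome 16 (94748636 to 94997701), Kcnk1 on chromosome 8 (125995170 to 126030685), Kcnk2 on chromosome 1 (189207930 to 189402273) and Kcnk10 on chromosome 12 (98429437 to 98578310). Exons of Kcnj3, Kcnj6, Kcnj9, Kcnk1 and Kcnk2 overlap exons of genes on the opposite strand (Gm26794, Gm41505, Gm36937, Gm45875 and A430027H14Rik). No source used here says if reads were counted by strand, and if strand was ignored, reads from the overlapping stretches of these 5 genes cannot be assigned to either partner. No exon of Kcnj10, Kcnj16, Kcnj2, Kcnj4 or Kcnk10 overlaps an exon of another annotated gene.

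The start regions of Kcnj10 and Kcnj16 are shown because these were the most abundant members and those with the smallest p-values, while their start regions differ in base composition. Each is a RefSeq window on GRCm38.p6 of 250 bases before to 50 bases after an annotated start, written 5′ to 3′ on the gene's strand, with CpG dinucleotides in capitals. The Kcnj10 window is chr1:172340960-172341259 (plus strand), and the Kcnj16 window is the most upstream of 4 annotated starts, chr11:110967783-110968082 (plus strand).
Kcnj10: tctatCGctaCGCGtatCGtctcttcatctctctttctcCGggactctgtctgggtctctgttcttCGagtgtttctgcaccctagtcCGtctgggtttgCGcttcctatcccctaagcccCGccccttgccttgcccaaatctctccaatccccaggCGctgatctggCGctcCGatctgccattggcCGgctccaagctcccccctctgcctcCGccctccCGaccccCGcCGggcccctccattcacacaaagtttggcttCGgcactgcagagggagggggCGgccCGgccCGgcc
Kcnj16: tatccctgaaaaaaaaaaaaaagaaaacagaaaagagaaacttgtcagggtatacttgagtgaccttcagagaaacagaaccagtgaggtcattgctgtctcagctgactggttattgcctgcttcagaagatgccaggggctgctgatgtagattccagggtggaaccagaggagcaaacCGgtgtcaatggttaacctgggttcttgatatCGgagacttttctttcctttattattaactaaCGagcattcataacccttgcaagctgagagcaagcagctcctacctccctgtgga
The Kcnj10 window holds 21 CpG and 63.7% G or C, and 24.8% of all 32851 windows hold at least as many CpG. The 4 Kcnj16 windows hold 1 to 8 CpG and 44.0 to 53.0% G or C. Over all windows the medians were 7 CpG and 52.7%. The letters GACCACCCA, a binding motif of the Gli transcription factors that act at the end of the Hedgehog pathway, were searched on both strands. They occurred in 0 of the 18 windows of the 10 genes and in 0.25% of all windows, and a window without these letters says nothing of binding elsewhere.

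Total counts per library ranged from 4061274 to 7206462. Ptch1, the targeted gene, stood at 357 ± 122 CPM (counts scaled to the size of each library, with TMM factors) in the WT group and at 223 ± 40.8 CPM in the mutants (SD, n = 4), with overlapping groups and a Benjamini-Hochberg adjusted p of 0.349 over all genes by edgeR. Xist had 10 or more counts in 2 of the 4 WT libraries and in 0 of the 4 Ptch1cKO libraries. The 10 astrocyte markers (Aldh1l1, Slc1a3, Slc1a2, Gja1, Aqp4, Gfap, S100b, Aldoc, Sox9 and Fgfr3) were all present in every library and summed to 20564 to 30416 CPM in WT and 15762 to 32288 CPM in Ptch1cKO. Transcripts of other cell types were present as well. The 8 oligodendrocyte markers, among them Mbp, summed to 13752 to 26619 CPM in WT and 17456 to 23096 CPM in Ptch1cKO, and the 10 neuronal markers, chiefly Snap25, to 3937 to 5371 and 3909 to 5020 CPM. Of the 7 oligodendrocyte markers tested, 6 had positive fold changes, with a median of 0.41 on the log2 scale and an unadjusted p under 0.05 for 4 of the 7. The 10 microglial markers summed to 392 to 760.4 CPM in WT and 451 to 1153 CPM in Ptch1cKO. All 10 had positive fold changes, with a median of 0.65 and an unadjusted p under 0.05 for 2, and none of either list passed over all genes by edgeR. The part of these cell types in the channel values was not tested. The 8 endothelial markers were near 0, at 4.71 to 18.7 and 4.79 to 16.0 CPM, with no read of Cldn5 in 4 of the 8 libraries. In sorted bulk samples, fewer cells of a type and less RNA per cell cannot be told apart.

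**Figure D1:**
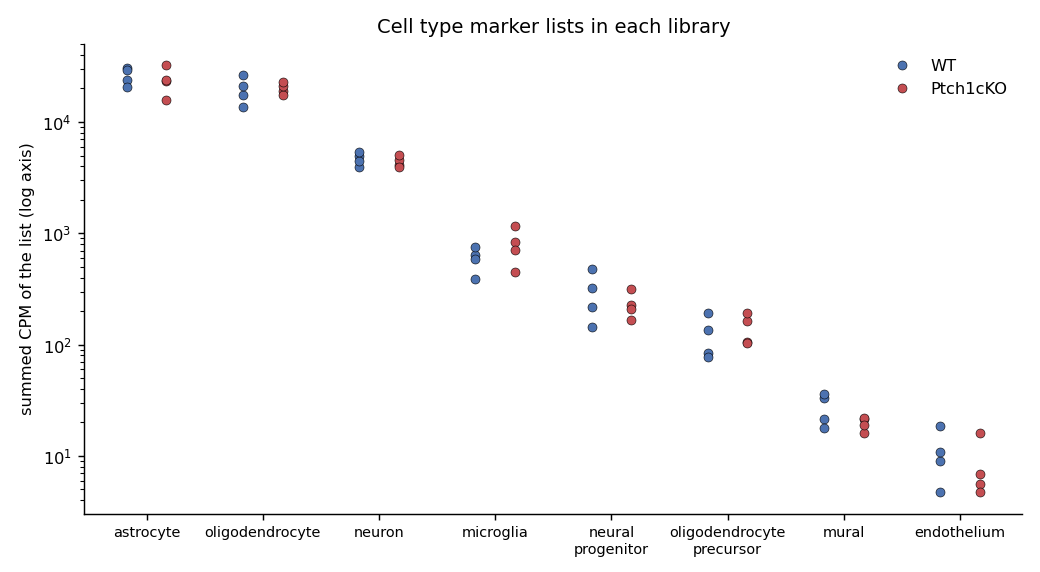
Summed CPM of 8 lists of cell type markers (horizontal axis) in each library, on a logarithmic vertical axis; each point is 1 library, blue for WT and red for Ptch1cKO. The ranges of both groups overlap for each of the 8 lists, and the oligodendrocyte sums lie in the same range as the astrocyte sums, while endothelial and mural sums reach at most 36.1 CPM.

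Per transcript length, Kcnj10 was by far the most abundant of the 10. Its level in the authors' deposited TPM (a level scaled for transcript length and library depth) was 462 ± 40.1 in WT and 617 ± 208 in Ptch1cKO (SD, n = 4). Kcnj16 followed at 46.0 ± 13.3 TPM in WT and 89.9 ± 26.0 TPM in Ptch1cKO (SD, n = 4). In WT the order then ran Kcnj3 at 26.2 ± 7.25, Kcnk1 at 22.1 ± 10.1, Kcnk2 at 14.2 ± 8.21, Kcnj6 at 7.15 ± 1.16, Kcnk10 at 6.08 ± 3.30, Kcnj9 at 3.9 ± 1.2, Kcnj4 at 3.0 ± 1.44 and Kcnj2 at 1.53 ± 0.643 TPM (SD, n = 4). Among neighbours in this order, only Kcnj10 and Kcnj16, and Kcnk2 and Kcnj6, did not overlap over the 4 WT libraries. In Ptch1cKO the order differed in that Kcnk1 stood above Kcnj3 and Kcnk10 above Kcnj6, each pair with overlapping libraries, and there Kcnj16 lay above Kcnk1 without overlap. RNA was enriched with exome capture probes, and probe efficiency therefore enters any comparison of level between genes.

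**Figure D2:**
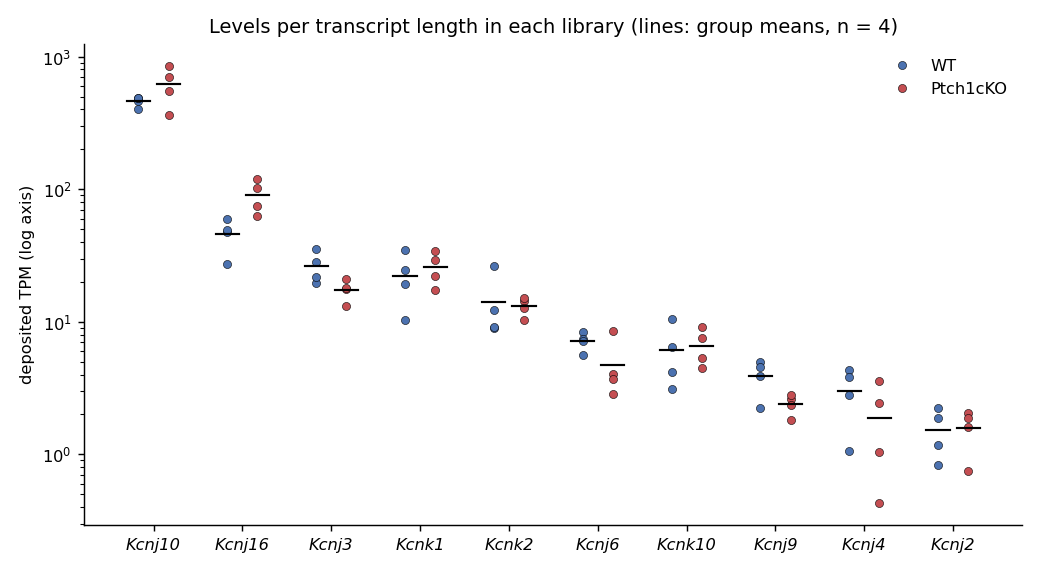
Deposited TPM (logarithmic vertical axis) of the 10 genes, ordered by their WT mean; each point is 1 library, blue for WT and red for Ptch1cKO, and lines are group means (n = 4). Kcnj10 lies above every other gene in all 8 libraries, and Kcnj2 has the lowest mean in both groups.

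Among the 15 Kcnj and 14 Kcnk genes of the TPM table, Kcnj10 alone took 72.3 to 77.0% of the summed TPM in WT and 70.5 to 80.2% in Ptch1cKO. Kcnj16 took 5.25 to 8.79% in WT and 10.4 to 12.1% in Ptch1cKO, so its share was higher in each mutant library than in any WT library. The GIRK subunits Kcnj3, Kcnj6 and Kcnj9 together took 5.11 to 6.84% in WT and 1.67 to 4.69% in Ptch1cKO, which did not overlap either. All Kcnk genes together took 8.15 to 10.2% and 6.02 to 9.16%. These shares sum to a fixed total that Kcnj10 dominates, so a higher share of one gene lowers the others.

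Kcnj16, the Kir5.1 subunit, was the only one of the 10 without overlap between groups, against 5.02% of all genes (2.52% with Ptch1cKO higher). Its values were 71.8, 39.9, 86.7 and 69.4 CPM in WT replicates 1 to 4 and 115, 184, 106 and 159 CPM in Ptch1cKO replicates 1 to 4. Every mutant library lay above every WT library, with the lowest mutant value in replicate 3 and the highest WT value also in replicate 3. The group means, 66.9 ± 19.6 and 141 ± 36.9 CPM (SD, n = 4), gave a 2.11-fold difference, or 1.07 on the log2 scale (SE 0.23; 95% interval 0.58 to 1.57). Over all genes Kcnj16 did not pass by edgeR's quasi-likelihood test (unadjusted p = 0.000333, Benjamini-Hochberg adjusted p = 0.12), whereas it passed by DESeq2 (log2 fold change 1.07, Benjamini-Hochberg adjusted p = 0.00324). DESeq2 called 79 of the 9037 genes to which it gave an adjusted p (0.874%), and 46 (0.509%) as higher in Ptch1cKO, against 11 of 10954 (0.10%) by edgeR, 9 of them higher (0.0822%) and 2 lower (0.0183%).

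Kcnj10, the Kir4.1 subunit, had 944, 789.5, 961 and 931 CPM in the WT libraries and 1151, 1770.0, 831 and 1459.9 CPM in the Ptch1cKO libraries. Mutant replicates 1, 2 and 4 lay above all WT libraries and replicate 3 lay within the WT range, so the groups overlapped. Group means were 906 ± 78.7 and 1303 ± 403 CPM (SD, n = 4). The log2 fold change was 0.52 (SE 0.18; 95% interval 0.13 to 0.92), with an edgeR Benjamini-Hochberg adjusted p = 0.404. The SD among the mutant libraries was thus larger than that among the WT libraries. Without Ptch1cKO replicate 3 the log2 fold change was 0.69 (edgeR, Benjamini-Hochberg adjusted p = 0.118), and without Ptch1cKO replicate 2, the highest library, it was 0.35 (adjusted p = 0.554).

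**Figure D3:**
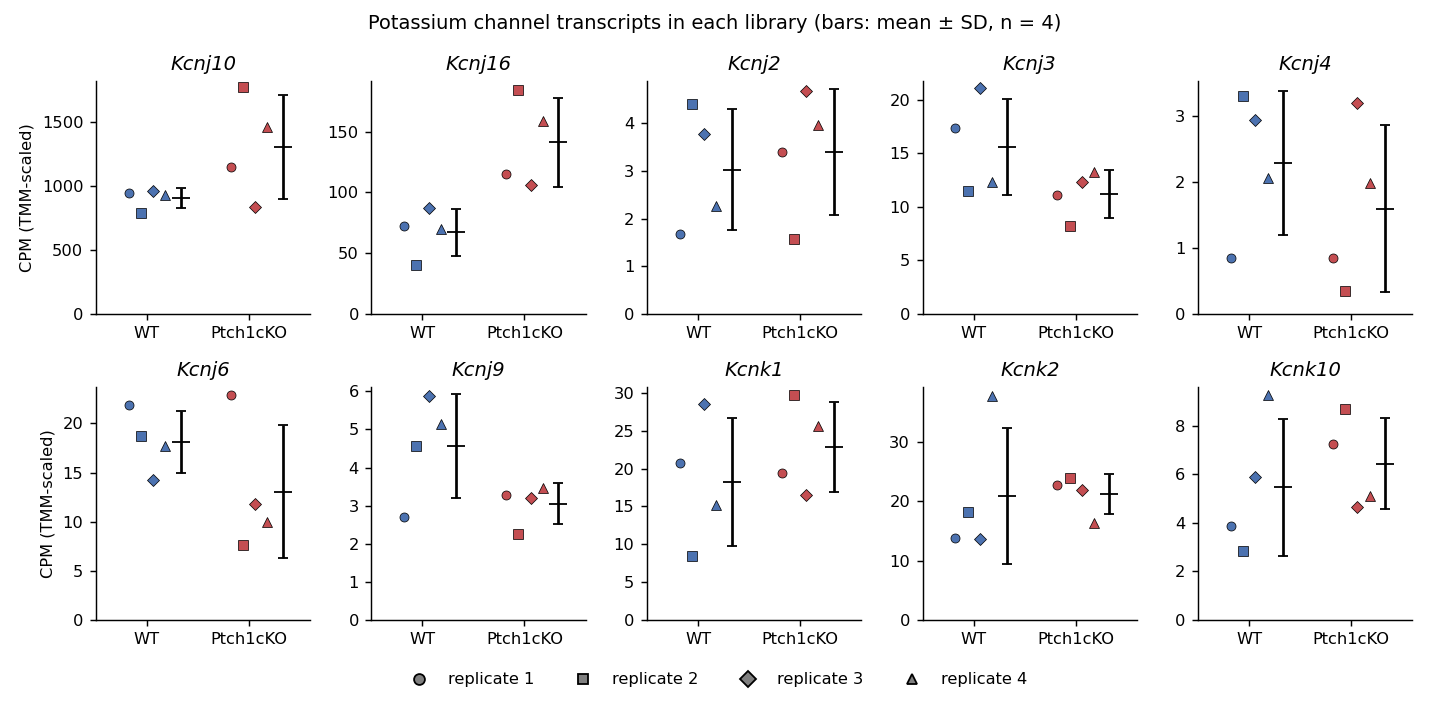
TMM-scaled CPM of each of the 10 genes (1 panel a gene, vertical axes from 0) in the WT and Ptch1cKO libraries; symbols mark replicates 1 to 4 and bars give the mean ± SD (n = 4). Only in the Kcnj16 panel do all mutant libraries lie above all WT libraries; in the Kcnj10 panel mutant replicate 3 lies among the WT libraries.

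Kcnj16 was also higher relative to Kcnj10, a ratio that does not depend on how libraries are scaled. Per 100 TPM of Kcnj10 there were 10.3, 6.82, 12.2 and 10.1 TPM of Kcnj16 in WT replicates 1 to 4 and 13.5, 14.05, 17.2 and 14.6 TPM in Ptch1cKO replicates 1 to 4. The mutant ratios all lay above the WT ratios, with means of 14.8 ± 1.61 and 9.83 ± 2.22 (SD, n = 4), and mutant replicate 3, which was lowest for both genes among the mutants, had the highest ratio. This ratio was formed with the values of both genes known and is given without a test.

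Astrocyte marker levels differed between libraries in the same range as Kcnj10. Ptch1cKO replicate 3 had the lowest astrocyte marker sum of all 8 libraries (15762 CPM) and the highest microglial sum (1153 CPM), and Ptch1cKO replicate 2 had the highest astrocyte sum (32288 CPM). Per 1000 CPM of summed astrocyte markers, Kcnj10 stood at 40.0, 38.4, 31.6 and 31.5 CPM in WT and at 48.8, 54.8, 52.7 and 61.3 CPM in Ptch1cKO, so that the groups no longer overlapped. Kcnj16 stood at 3.04, 1.94, 2.85 and 2.35 CPM in WT and 4.89, 5.71, 6.71 and 6.66 CPM in Ptch1cKO on the same scale. The glutamate transporter Slc1a2 alone made up 59.2 to 76.1% of that sum. Its mean was 18620 CPM in WT and 15926 CPM in Ptch1cKO, a log2 fold change of -0.23, and a lower divisor raises these ratios. Of the 10 astrocyte markers, 8 had positive and 2 negative fold changes, with a median of 0.082, and 0 passed. Against the geometric mean of the 10 markers, which weights them equally, Kcnj10 had ratios of 2.52, 2.5, 2.24 and 2.78 in WT and 2.79, 4.41, 2.54 and 3.36 in Ptch1cKO, which overlapped, and Kcnj16 had ratios of 0.126 to 0.207 and 0.28 to 0.459, which did not. When all genes were fitted with either scaling, neither gene passed (edgeR, Benjamini-Hochberg adjusted p = 0.831 and 0.601 for Kcnj10 and 0.13 and 0.0868 for Kcnj16). With these scalings the median over all genes stood at 0.17 and -0.12 on the log2 scale, against -0.0019 with TMM. Oligodendrocytes also express Kcnj10. The part of astrocyte and oligodendrocyte numbers in the Kcnj10 values was not tested.

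**Figure D4:**
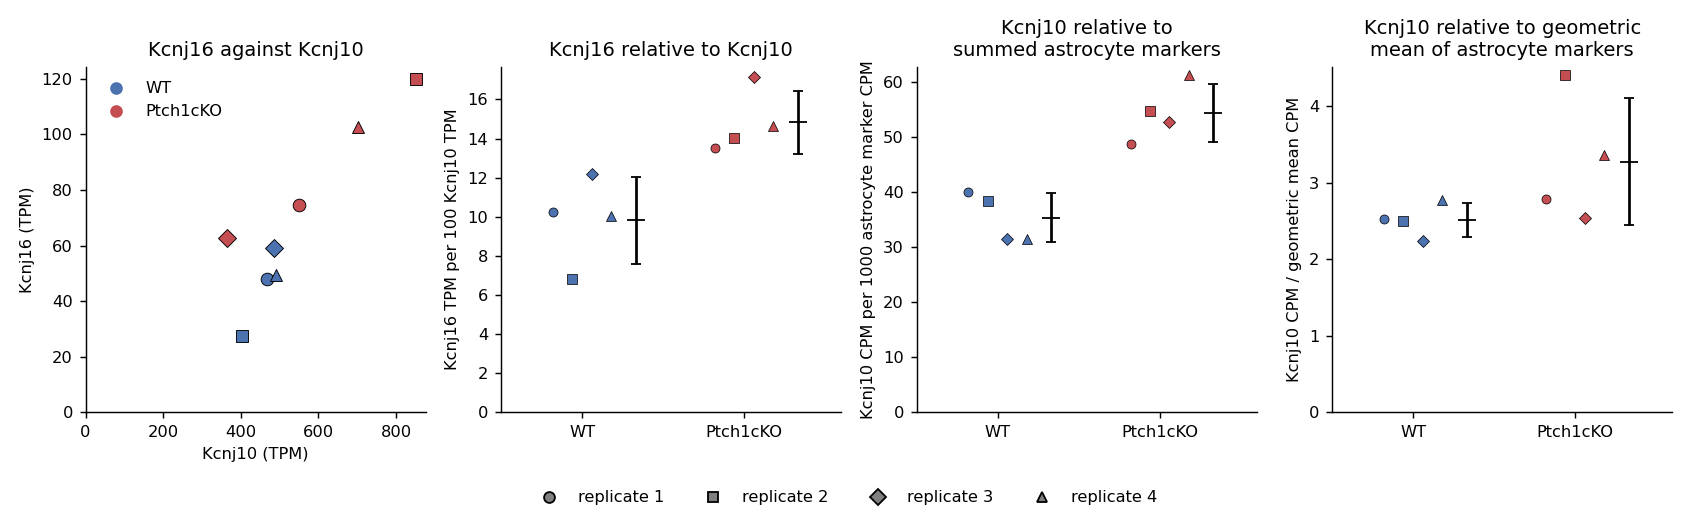
From left to right, Kcnj16 TPM against Kcnj10 TPM by library, Kcnj16 TPM per 100 Kcnj10 TPM, Kcnj10 CPM per 1000 CPM of summed astrocyte markers, and Kcnj10 CPM over the geometric mean of those markers; all axes start at 0, symbols mark replicates and bars give the mean ± SD (n = 4). The groups are apart in both middle panels and overlap in the last, where mutant replicate 3 stands at 2.54 and WT replicate 4 at 2.78.

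The genes whose pattern over the 8 libraries was most like that of Kcnj16 or Kcnj10 were found by the root mean square difference of log2 CPM, each gene centred on its own mean. For Kcnj10 the closest of 6755 genes averaging 10 CPM or more were Jam2, an adhesion molecule of cell junctions (difference 0.091), the integrin subunit Itgb8 (0.11) and the sulfotransferase Chst10 (0.11), against a median of 0.46. For Kcnj16 they were Lrig1, a leucine-rich repeat membrane protein (0.15), the citrate transporter Slc13a5 (0.19) and the mitochondrial glutamate carrier Slc25a18 (0.21), against a median of 0.71. These genes were picked for following Kcnj10 or Kcnj16 over the same libraries, so how their groups lie follows from that choice. Slc25a18 stood at 54.2 ± 15.8 and 105 ± 12.9 CPM in the WT and mutant groups (SD, n = 4) without overlap. Slc13a5 had 19.9 ± 7.48 and 35.5 ± 12.9 CPM (SD, n = 4) with overlapping groups. Jam2 had 38.4 ± 4.32 and 59.0 ± 16.8 CPM (SD, n = 4), also with overlap, with Ptch1cKO replicate 3 at 38.6 CPM and replicate 2 at 73.5 CPM.

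The G protein-gated subunits all had lower means in Ptch1cKO, and none passed. Kcnj3 (GIRK1) had 17.3, 11.5, 21.1 and 12.4 CPM in WT and 11.1, 8.17, 12.3 and 13.2 CPM in Ptch1cKO. Its log2 fold change was -0.48 (SE 0.27; 95% interval -1.05 to 0.085), and the mutant values lay in or below the lower part of the WT range. Leaving out single libraries moved it between -0.60 (without WT replicate 2) and -0.30 (without WT replicate 3). Kcnj6 (GIRK2) had 21.9, 18.7, 14.3 and 17.7 CPM in WT and 22.9, 7.65, 11.8 and 9.92 CPM in Ptch1cKO. Here 3 mutant libraries lay below every WT library and mutant replicate 1 lay above every WT library, so that the log2 fold change of -0.46 (SE 0.31) became -0.89 without that library and -0.27 without Ptch1cKO replicate 2, the lowest one (edgeR, Benjamini-Hochberg adjusted p = 0.351 and 0.859). Kcnj9 (GIRK3), which cannot form surface channels alone and assembles with other GIRK subunits, had 2.69, 4.56, 5.87 and 5.15 CPM in WT and 3.27, 2.26, 3.20 and 3.47 CPM in Ptch1cKO, with a log2 fold change of -0.58 (SE 0.37). The mutant values of Kcnj9 lay below WT replicates 2 to 4 and around WT replicate 1. The edgeR Benjamini-Hochberg adjusted p-values were 0.616, 0.683 and 0.666 for Kcnj3, Kcnj6 and Kcnj9.

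Of the 10 neuronal markers, 5 had positive and 5 negative fold changes, 0 passed, and their median was -0.039 on the log2 scale. The part of neuronal RNA in the values of the GIRK subunits was not tested. The vesicular glutamate transporter Slc17a7, a marker of excitatory neurons, had mean levels of 134 CPM in WT and 145 CPM in Ptch1cKO, and the GABA-synthesizing enzyme Gad2 70.1 and 60.1 CPM. Kcnj9 and its neighbour Kcnj10 had log2 fold changes of opposite sign, -0.58 (95% interval -1.37 to 0.20) and 0.52 (95% interval 0.13 to 0.92). The interval of Kcnj9 includes 0 and overlaps that of Kcnj10. Whether these changes differ was not tested.

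The strong rectifiers had few counts and did not pass. Kcnj4 (Kir2.3) had 5, 21, 21 and 10 counts in WT and 6, 2, 13 and 12 counts in Ptch1cKO, with a log2 fold change of -0.59 (SE 0.60; 95% interval -1.86 to 0.69; edgeR, Benjamini-Hochberg adjusted p = 0.818). Both groups spread widely and overlapped, and the log2 fold change ran from -1.10 without Ptch1cKO replicate 3 to -0.24 without Ptch1cKO replicate 2. Kcnj2 (Kir2.1), which is also known from microglia and vascular cells, had 10, 28, 27 and 11 counts in WT and 24, 9, 19 and 24 counts in Ptch1cKO, or 76 counts in each group. Its log2 fold change was 0.14 (SE 0.44; 95% interval -0.80 to 1.09; edgeR, Benjamini-Hochberg adjusted p = 0.964). The intervals of both genes include changes of more than 1.5-fold in either direction, so the spread between these libraries leaves changes of that size undecided. The log2 fold change of its neighbour Kcnj16, 1.07 (95% interval from 0.58), lay within the 95% interval of Kcnj2. Whether the 2 changes differ in size was not tested.

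The two-pore channels had overlapping groups and none passed. Kcnk1 (TWIK-1), a weakly rectifying leak channel found in astrocytes, had 20.7, 8.49, 28.5 and 15.2 CPM in WT and 19.5, 29.7, 16.5 and 25.6 CPM in Ptch1cKO. Its log2 fold change was 0.32 (SE 0.32; 95% interval -0.35 to 1.0), and it was 0.084 without WT replicate 2, the lowest of all 8 libraries, and 0.63 without WT replicate 3. Kcnk2 (TREK-1), a mechanically and lipid-gated channel, had 13.8, 18.2, 13.7 and 37.9 CPM in WT and 22.7, 24.0, 21.9 and 16.4 CPM in Ptch1cKO. WT replicate 4 was the highest of all 8 libraries for Kcnk2, and the log2 fold change of 0.033 (SE 0.30; 95% interval -0.61 to 0.68) became 0.48 without it and -0.12 without WT replicate 1 or 3. Kcnk10 (TREK-2), a close relative of TREK-1, had 3.87, 2.83, 5.87 and 9.26 CPM in WT and 7.24, 8.69, 4.67 and 5.12 CPM in Ptch1cKO, with a log2 fold change of 0.26 (SE 0.38; 95% interval -0.55 to 1.06). WT replicate 4 was the highest library for Kcnk10 too, and without it the log2 fold change was 0.62, against 0.041 without WT replicate 2 and 0.088 without Ptch1cKO replicate 2. The edgeR Benjamini-Hochberg adjusted p-values were 0.808, 0.989 and 0.886 for Kcnk1, Kcnk2 and Kcnk10.

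**Figure D5:**
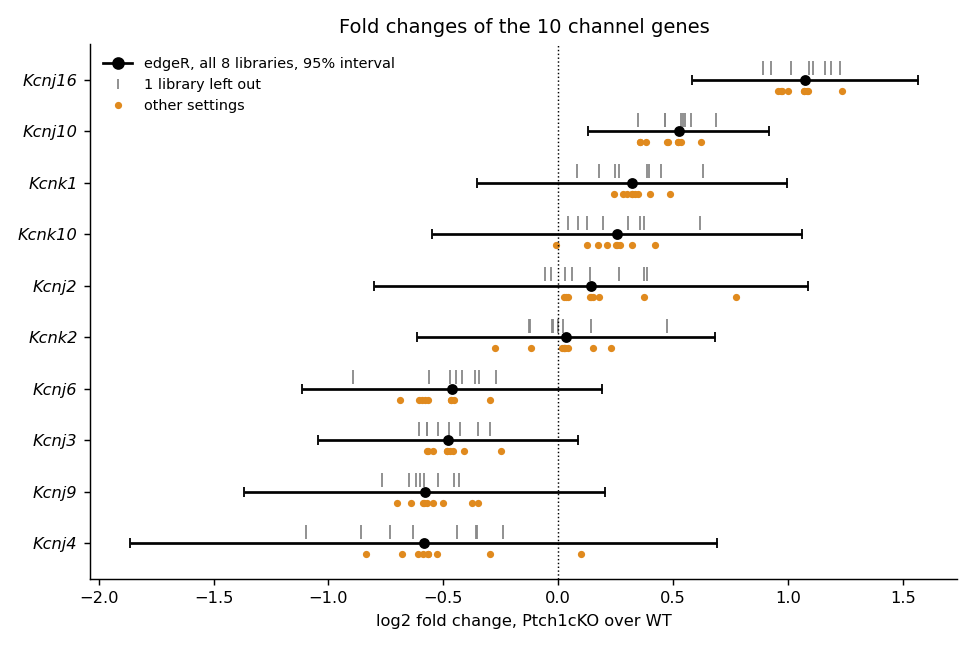
Log2 fold change of Ptch1cKO over WT for the 10 genes, ordered by size; black points with bars are the edgeR estimates from all 8 libraries with 95% intervals, grey ticks leave out 1 library each, and orange points are the other settings. Every estimate for Kcnj16 and Kcnj10 lies right of 0, and every estimate for Kcnj3, Kcnj6 and Kcnj9 left of 0, while those for Kcnk2 lie on both sides.

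Over the 10 genes, 0 were called by edgeR at a Benjamini-Hochberg adjusted p under 0.05, against 0.10% of all genes tested, and an unadjusted p under 0.05 was found for 2, Kcnj16 and Kcnj10, against 9.34% of all genes. DESeq2 called 1 of the 7 members to which it gave an adjusted p, against 0.874% of all 9037 genes with an adjusted p. The groups did not overlap for 1 of the 10, Kcnj16, against 5.02% of all genes in either direction and 2.52% with Ptch1cKO higher. Fold changes were positive for 6 and negative for 4, and their median of 0.088 on the log2 scale compares with -0.0019 over all genes. The 10 genes were chosen with earlier results of these data known. These comparisons therefore describe the genes and do not test them as a set.

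Among the libraries with under 10 Xist counts, 2 WT and 4 Ptch1cKO, the log2 fold change was 1.0 (SE 0.24) for Kcnj16 and 0.48 (SE 0.25) for Kcnj10, and neither passed with these fewer samples (edgeR, Benjamini-Hochberg adjusted p = 0.284 and 0.659). Kcnj3, Kcnj6 and Kcnj9 also kept negative fold changes there. Those of Kcnj4, Kcnk2 and Kcnk10 changed sign.

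Other genes of potassium transport were then examined in lists written from knowledge of the pathway. Of 7 tested subunits and anchors of inward rectifiers, 0 passed, with 4 positive and 3 negative fold changes and a median of 0.038. Dystroglycan (Dag1), the laminin receptor of the complex that anchors Kir4.1 at perivascular endfeet, averaged 98.4 ± 29.8 and 159 ± 45.1 CPM in the WT and mutant groups (SD, n = 4), and dystrobrevin (Dtna), of the same complex, had 1431 ± 132 and 1081 ± 160 CPM (SD, n = 4). Dtna values did not overlap between groups, nor did those of Abcc8, the sulphonylurea receptor subunit of ATP-sensitive channels. Abcc8 had 5.21, 8.80, 12.3 and 4.74 CPM in WT and 4.54, 4.00, 1.48 and 2.98 CPM in Ptch1cKO. Thus 2 of the 7 genes had no overlap, both lower in Ptch1cKO, against 5.02% of all genes in either direction. The edgeR Benjamini-Hochberg adjusted p was 0.349 for each of Dag1, Dtna and Abcc8.

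Of 15 genes for the receptors, G proteins and regulators that act on GIRK channels, 0 passed, with 6 positive and 9 negative fold changes and a median of -0.085. The inhibitory G protein alpha subunit Gnai3 averaged 118 ± 5.28 and 90.0 ± 12.2 CPM (SD, n = 4) without overlap (edgeR, Benjamini-Hochberg adjusted p = 0.412). It was the only 1 of the 15 without overlap, against 5.02% of all genes in either direction. Its relatives Gnao1 and Gnai2 had log2 fold changes of -0.29 and 0.22. Of 9 tested pumps and cotransporters that clear or carry potassium, 0 passed, with 4 positive and 5 negative and a median of -0.039. Groups had no overlap for 1 of the 9 genes, lower in Ptch1cKO, against 5.02% of all genes in either direction. The potassium-chloride cotransporter Slc12a4 had a log2 fold change of 0.63, and Atp1b2, the sodium pump beta subunit typical of astrocytes, 0.49. Both had overlapping groups (edgeR, Benjamini-Hochberg adjusted p = 0.482 and 0.532).

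Of 22 tested voltage-gated potassium channel genes, 0 passed, with 7 positive and 15 negative and a median of -0.076. The fold change of Kcnq5, a subunit of the M-current of neurons, was -0.59 on the log2 scale (SE 0.20), and that of Kcna1 was -0.50 (SE 0.22). Groups had no overlap for 2 of the 22 genes, both lower in Ptch1cKO, against 5.02% of all genes in either direction. Kcnq5 was 1 of these 2, at 22.8 to 33.5 CPM in WT and 16.7 to 21.2 CPM in Ptch1cKO (edgeR, Benjamini-Hochberg adjusted p = 0.378). Of 6 tested calcium- or sodium-activated channel genes, 0 passed and 3 had positive fold changes, with a median of 0.011. The BK channel gene Kcnma1 had a log2 fold change of -0.29, and the small-conductance channel genes Kcnn2 and Kcnn1 -0.32 and 0.26.

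Only 4 further genes of both families could be tested, and none passed. The ATP-sensitive channel pore Kcnj11 and the strong rectifier Kcnj12 had log2 fold changes of -0.67 (SE 0.47) and 0.017 (SE 0.46). The two-pore channel genes Kcnk6 and Kcnk3 had 1.21 (SE 0.65) and 0.081 (SE 0.35), with Kcnk6 at 2 to 20 counts a library. Adjusted p-values of the 4 were 0.61 to 0.995 (edgeR, Benjamini-Hochberg).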

How the data were processed

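RNA from sorted tdTomato-positive cells was measured in 4 WT and 4 Ptch1cKO libraries. Per the labels' protocols, cDNA from a low-input kit was enriched with exome capture probes. Reads were handled with bcl2fastq 2.18 and STAR 2.5 on mm10, per the submitters' processing notes; how genes were counted, with which annotation and strand setting, is not stated there or in the labels. Per gene symbol, the deposited counts are unnormalized whole reads, and the deposited TPM were scaled for length and depth by the authors.

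The main test was edgeR 4.0.16 (R 4.3.3). The filterByExpr filter (minimum count 10) kept 10954 of 20578 genes with a count, libraries were scaled with TMM, and the robust quasi-likelihood F test compared the groups with no other term. P-values were adjusted by Benjamini-Hochberg over all genes tested, with calls under 0.05. SE is the log2 fold change divided by the square root of F. Alternatives used DESeq2 1.42.0 and limma 3.58.1. Members and lists were chosen with earlier results of these data known. Named were all members, Ptch1, the 3 genes with the smallest p of each list, and the 3 genes closest to Kcnj10 and Kcnj16, except for some genes that are not reported here; Kcnk6 and the other 3 testable family genes fill lists of 2, and marker genes and Kcnq5 ranges stand beside results. Positions come from GENCODE M21 (GRCm38, the assembly of mm10) and windows from RefSeq (GRCm38.p6), in which all 10 symbols matched. No 2 libraries agreed within sampling noise (lowest chi-square per degree of freedom 11.4). The prefixes of the column names differ between the genotypes and their meaning is not stated. WT replicates 1 and 2 share a prefix, as do WT replicates 3 and 4, and Ptch1cKO replicates 1 and 2. If prefixes mark batches, batch and genotype cannot be told apart, and libraries that share a prefix may not be independent. The test was also run on simulated counts to check the procedure, and no value given here rests on that run. Intervals of the fold changes cover the spread between libraries.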

Additional observations from a re-analysis of the deposited data

Results flagged for a closer look

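Sets of 4 libraries were screened for the genes named and for ratios formed with Kcnj16 or Kcnj10. In 3 of 80 sets, 1 library was set apart from the other 3 by more than Dixon's limit. Chance gives this in about 1 of 20 sets. The small-conductance potassium channel gene Kcnn2 had 259 CPM in WT replicate 3 and 71.3 to 94.2 CPM in the other WT libraries. Dag1 had 143 CPM in the same WT library and 79.5 to 85.6 CPM in the other 3. Kcnj11 had 8.12 CPM in Ptch1cKO replicate 3 and 1.74 to 2.31 CPM in the other mutant libraries. None of the 10 channel genes examined was set apart in this way in either group.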

How the results depend on the processing

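For the 10 channel genes, 159 of 170 alternative estimates kept their direction. Kcnj16 ranged from 0.89 to 1.23 on the log2 scale and Kcnj10 from 0.35 to 0.69 over 17 alternatives each. Kcnj16 passed with DESeq2 (adjusted p = 0.00324) and, like Kcnj10, without the filter on low counts (edgeR, Benjamini-Hochberg adjusted p = 2.81e-07 for Kcnj16 and 0.012 for Kcnj10), and the other alternatives gave adjusted p-values of 0.0836 to 0.369 for Kcnj16 and 0.118 to 0.831 for Kcnj10. Of the 10, the number called was thus 1 with DESeq2 and 2 without the filter, and 0 in the rest. Without the filter the log2 fold changes were 1.09 for Kcnj16 and 0.53 for Kcnj10, close to those of the main fit. The SE there was 0.17 against 0.23 in the main fit for Kcnj16, and 0.13 against 0.18 for Kcnj10. The lower adjusted p-values thus came with smaller SE and not with larger changes. Over all genes, 79 of 9037 were called with DESeq2, and 199 of the 20578 genes with a count without the filter. There were 3 calls in the 6 libraries with under 10 Xist counts and 2 with limma on log2(TPM + 1). Scaling to summed astrocyte markers gave 4, scaling to their geometric mean 12, and leaving out single libraries 1 to 19. Both marker scalings were chosen after seeing the data. With the replicate number as a block 5 genes were called over all genes, and no call among the 10 channel genes changed; same-numbered libraries did not deviate together (correlations of deviations -0.17 to 0.018), so the numbers were not used as pairs, and no WT library correlated best with its own number. Signs turned for Kcnk2 without WT replicates 1, 2 or 3 or Ptch1cKO replicates 1 or 2 (-0.12 to 0.48 over single libraries left out), in the 6 libraries with under 10 Xist counts (-0.28) and with the geometric mean scaling (-0.12); for Kcnj2 without WT replicate 1 or Ptch1cKO replicate 3 (-0.057 to 0.39 over single libraries left out); and in the 6 libraries for Kcnj4 (0.10) and Kcnk10 (-0.0080). In each case the cause was not tested. Limma on log2(TPM + 0.1) called 0 of the 10. Kcnj2, Kcnj4, Kcnj9 and Kcnk10 had at most 51 counts in any library.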

Other observations

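The other members of both channel families lay mostly below the count filter. Of 15 such genes, 10 had at most 10 counts in every library and 3, Kcnk7, Kcnk15 and Kcnk16, had no count, which allows up to 3 counts in a library. Kcnj8, the pore of the ATP-sensitive channel of pericytes, had 4 counts over all WT and 2 over all mutant libraries. Kcnj13, known from the choroid plexus and retinal pigment epithelium, had 44 pooled counts in WT, 24 of them in 1 library, and 28 in Ptch1cKO. Kcnk9, the acid-sensitive leak channel TASK-3, had 46 over the WT libraries and 20 over the mutants, and Kcnk5, a pH-sensitive leak channel known from the kidney, had 28 and 5, with 1 to 10 counts per WT library and 1 to 2 per mutant library. These genes were chosen after their values were seen and were not tested.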
